A study of Mus musculus with 6 samples.

Results

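Iron handling in the mouse liver was described through 10 transcripts of 54532 genes in the count table: the hepcidins *Hamp* and *Hamp2*, the genes *Bmp6*, *Hfe* and *Tfr2* that act on hepcidin, the transferrin receptor *Tfrc*, the ferritin subunits *Fth1* and *Ftl1*, the iron exporter *Slc40a1* and the heme oxygenase *Hmox1*. They were chosen by gene name, with earlier results of these data known, and all 10 were tested. RNA-Seq was performed on poly-A RNA of whole liver from 3 g*Spns1*-cKO mice and 3 control mice, 1 library per mouse. In the g*Spns1*-cKO mice (*Spns1* fl/fl with Rosa26Cre-ERT2, on C57BL/6), tamoxifen induces deletion of the lysosomal lysolipid transporter gene *Spns1* throughout the body after birth. The study's methods describe the controls as *Spns1* fl/fl littermates, whereas the labels call them wild type. The age and sex of the mice sequenced, and whether the controls received tamoxifen, were not given in the sources used here.

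Hepcidin is a peptide hormone made by hepatocytes that binds ferroportin, the product of *Slc40a1*, and causes its degradation, so that less iron leaves macrophages and the gut. Its transcription is driven by iron through BMP6, which sinusoidal endothelial cells secrete, with HFE, transferrin receptor-2 and hemojuvelin as partners at the hepatocyte surface, and by inflammation through IL-6 and STAT3. Inside cells, iron-regulatory proteins bind iron-responsive elements (IREs) when iron is scarce; this stabilizes the mRNA of *Tfrc* and blocks translation of ferritin and ferroportin mRNA. Heme oxygenase-1 opens the ring of heme and releases its iron, and is abundant in macrophages that clear red cells.

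The 250 bases before the RefSeq start of each of the 2 hepcidin genes are shown because the share of each copy in their summed counts separated the groups below. Both are printed 5′ to 3′ on the gene's strand (RefSeq, GRCm38.p6). *Hamp* is read from chr7:30944030-30944279 and *Hamp2* from chr7:30924182-30924431, both on the minus strand. The *Hamp2* window lies inside the deposited span of the gene, which reaches farther upstream than the RefSeq start. Capitals mark 6 bases at the place of GGCGCC, the core of the BMP-responsive element that SMAD proteins bind, and 9 bases matching TTCNNNGAA, the STAT consensus.
Hamp: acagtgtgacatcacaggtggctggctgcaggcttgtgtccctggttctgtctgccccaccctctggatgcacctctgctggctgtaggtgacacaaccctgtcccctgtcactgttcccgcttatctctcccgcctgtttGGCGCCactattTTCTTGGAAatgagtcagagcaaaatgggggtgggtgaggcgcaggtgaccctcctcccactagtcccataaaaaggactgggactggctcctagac
Hamp2: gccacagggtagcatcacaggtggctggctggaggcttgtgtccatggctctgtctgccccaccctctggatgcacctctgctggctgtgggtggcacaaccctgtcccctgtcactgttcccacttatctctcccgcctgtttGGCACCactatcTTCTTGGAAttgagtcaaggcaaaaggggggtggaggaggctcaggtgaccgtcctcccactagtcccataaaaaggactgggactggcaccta
The windows were 91.9% identical over 247 aligned bases. The first capital stood 109 bases before the start in *Hamp* and 106 in *Hamp2*. The 6-base core differed by G145A, counted from 1 at the 5′ end of the *Hamp* sequence, with the *Hamp* base first. The 9 bases were identical. Both motifs read the same on both strands and did not overlap. GGCGCC occurred in 9.59% and TTCNNNGAA in 7.02% of 32851 mouse promoter windows of this length. A match of letters is a description and was not tested as a binding site.

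The IREs are shown because the transcripts that carry them are the ones iron-regulatory proteins act on. The search covered whole protein-coding transcripts on the sense strand, coding sequence included. It asked for a C, any 5 bases and the loop CAGTGN, with those 5 bases able to pair with the 5 bases after the loop. Capitals mark the loop, and positions are on GRCm38 with GENCODE M21 transcripts.
Tfrc IRE 1: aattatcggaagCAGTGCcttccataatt
Tfrc IRE 2: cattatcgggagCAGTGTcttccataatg
Tfrc IRE 3: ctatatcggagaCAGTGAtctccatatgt
Tfrc IRE 4: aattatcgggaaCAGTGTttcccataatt
Fth1: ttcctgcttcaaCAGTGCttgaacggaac
Ftl1: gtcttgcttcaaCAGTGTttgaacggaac
Slc40a1: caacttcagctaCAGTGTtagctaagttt
The *Tfrc* matches lie in the 3′ UTR, the first at chr16:32631219-32631247 and the last at chr16:32631710-32631738 on the plus strand. Those of *Fth1* (chr19:9982732-9982760, plus strand), *Ftl1* (chr7:45459779-45459807, minus strand) and *Slc40a1* (chr1:45925465-45925493, minus strand) lie in the 5′ UTR. The pattern was found, anywhere in a transcript, in 294 of 21901 protein-coding genes (1.34%), and in none of the other 6 transcripts of this set.

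Libraries held 30350002 to 35295611 counts assigned to genes. Levels are given as CPM, counts scaled to a common library total with the trimmed mean of M-values (TMM), ± SD with n = 3 per group, and log2 fold changes are g*Spns1*-cKO against control with their standard error (SE). A gene was called higher or lower at a Benjamini-Hochberg adjusted p under 0.05 in edgeR's quasi-likelihood test over all 15449 genes tested. *Spns1* itself was 40.4 ± 8.98 CPM in controls and 22.1 ± 7.40 CPM in g*Spns1*-cKO livers (log2 fold change -0.87, SE 0.25, edgeR adjusted p = 0.0300), with every g*Spns1*-cKO library below every control. The deletion removes exon 3, whereas the counts cover the whole gene, so this level does not measure the extent of deletion. The TMM factors were 0.834 to 0.873 in control and 1.16 to 1.18 in g*Spns1*-cKO libraries, so the choice of scaling moves with the groups. Scaling by library size alone would shift the median gene upward by 0.44 on the log2 scale and raise the higher share of called genes from 50.9% to 88.3%. Upper-quartile scaling would add 0.13 and give 64.7%. Fold changes here are relative to the TMM scale, and the members whose call depends on it are named.

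The defining markers of hepatocytes were abundant in all libraries, as the label liver requires. Their summed level was 119903 to 131627 CPM in controls and 71656 to 82876 CPM in g*Spns1*-cKO livers, and 6 of 10 were lower. With library size alone 1 was higher and 2 were lower. In the same libraries the 10 resident Kupffer cell markers and the 10 markers of other macrophages were all higher. So were 9 of 10 stellate cell markers (summed 242 to 270 against 580 to 653 CPM), 8 of 9 tested cholangiocyte markers (59.7 to 78.2 against 190 to 305 CPM) and the 3 neutrophil markers tested of 8 (2.28 to 4.48 against 5.64 to 10.4 CPM, summed over the 8). Of 10 lymphocyte markers 1 was higher and 1 lower. In bulk tissue, fewer cells of a type and less RNA per cell cannot be told apart.

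Of the 10 genes, 4 were higher in g*Spns1*-cKO livers (*Hamp2*, *Tfrc*, *Hmox1*, *Bmp6*), 2 were lower (*Tfr2*, *Hfe*) and 4 were not called (*Hamp*, *Fth1*, *Ftl1*, *Slc40a1*). Over all genes tested 41.8% were called, 21.3% higher and 20.5% lower, so that calls as such were common. The libraries of the groups did not overlap for 6 of the 10, 5 with g*Spns1*-cKO above and 1 below. The same held for 54.1% of all genes, 27.1% above and 26.9% below. The median log2 fold change was 0.27 for the 10 genes and 0.014 for all genes. With library size alone, 6 were higher and 1 was lower, and with upper-quartile scaling 5 and 1.

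**Figure D1:**
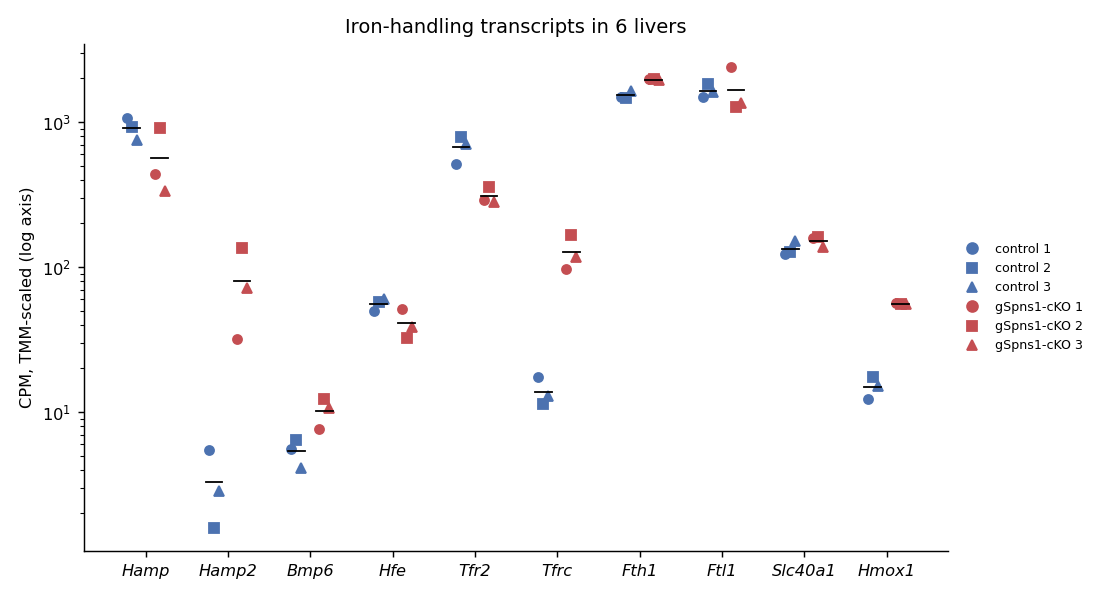
Level of each gene in each of the 6 livers, as TMM-scaled CPM on a log axis. Points are libraries, blue for control and red for gSpns1-cKO, and black lines are group means (n = 3). *Tfrc*, *Hmox1* and *Hamp2* separate widely, whereas the *Hamp* and *Ftl1* libraries overlap.

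Compared per length, as CPM per kilobase of the deposited gene length (RPKM), *Hamp* led the control livers at a mean of 2225, followed by *Fth1* at 1769 and *Ftl1* at 1232. The ranges of *Hamp* (1842 to 2590 RPKM) and *Fth1* (1706 to 1879 RPKM) overlapped. *Tfr2* stood at 155 RPKM, and the remaining genes were between 1.38 for *Bmp6* and 15.7 for *Hfe*. In g*Spns1*-cKO livers the order began with *Fth1* at 2267 RPKM, then *Hamp* at 1369 and *Ftl1* at 1251, whose ranges overlapped (821 to 2217 and 952 to 1789 RPKM). *Hamp2* moved from 5.69 to 137 RPKM and *Tfrc* from 2.24 to 20.6 RPKM.

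Of the 2 hepcidin genes, *Hamp2* was higher in g*Spns1*-cKO livers and *Hamp* was not called. *Hamp* (ENSMUSG00000050440, chr7:30942368-30944032, minus strand) encodes the iron-regulatory hormone. Its counts were 29861, 28318 and 19114 in controls and 15783, 34873 and 13235 in g*Spns1*-cKO livers. Scaled, the g*Spns1*-cKO libraries stood at 439, 909 and 337 CPM, and the second of them fell inside the control range of 755 to 1062 CPM. The mean was 912 ± 154 CPM in controls and 561 ± 305 CPM in g*Spns1*-cKO livers, and the difference did not pass the test (log2 fold change -0.70, SE 0.37, edgeR adjusted p = 0.174). Without that library, g*Spns1*-cKO replicate 2, *Hamp* was lower (log2 fold change -1.23, edgeR adjusted p = 0.000921). The summed hepatocyte markers were 71656, 82876 and 79182 CPM in g*Spns1*-cKO replicates 1, 2 and 3. Their part in the spread of *Hamp* was not tested.

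*Hamp2* (ENSMUSG00000056978, chr7:30922372-30924681, minus strand) is a neighboring copy found in mice, for which a role in iron control is less established. It had 155, 49 and 72 counts in controls and 1149, 5197 and 2836 counts in g*Spns1*-cKO livers. All g*Spns1*-cKO libraries were above all controls. The mean rose from 3.32 ± 2.00 to 79.8 ± 52.2 CPM, 24.1-fold (log2 fold change 4.59, SE 0.83, edgeR adjusted p = 0.0136). The call was lost without control replicate 3, where the log2 fold change was 4.49 and the edgeR adjusted p = 0.0531. The transcripts of both genes were 94.6% identical over 410 aligned bases, with an identical run of up to 87 bases, so reads could be uncertain between them and the split between the copies depends on the authors' counting.

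Within a library, the share of *Hamp2* among the summed counts of both genes does not depend on scaling. It was 0.516% (95% exact Clopper-Pearson interval 0.438 to 0.604), 0.173% (0.128 to 0.228) and 0.375% (0.294 to 0.472) in controls. In g*Spns1*-cKO livers it was 6.79% (6.41 to 7.18), 13.0% (12.6 to 13.3) and 17.6% (17.1 to 18.2). The intervals cover counting error only. The lowest g*Spns1*-cKO share exceeded the highest control share by more than these intervals. The group means were 0.355 ± 0.173% and 12.5 ± 5.45% (n = 3 each), with a two-sided exact permutation p = 0.1, the smallest that 3 against 3 allows. Summed, the 2 genes gave a log2 fold change of -0.51 (SE 0.36, edgeR adjusted p = 0.302).

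**Figure D2:**
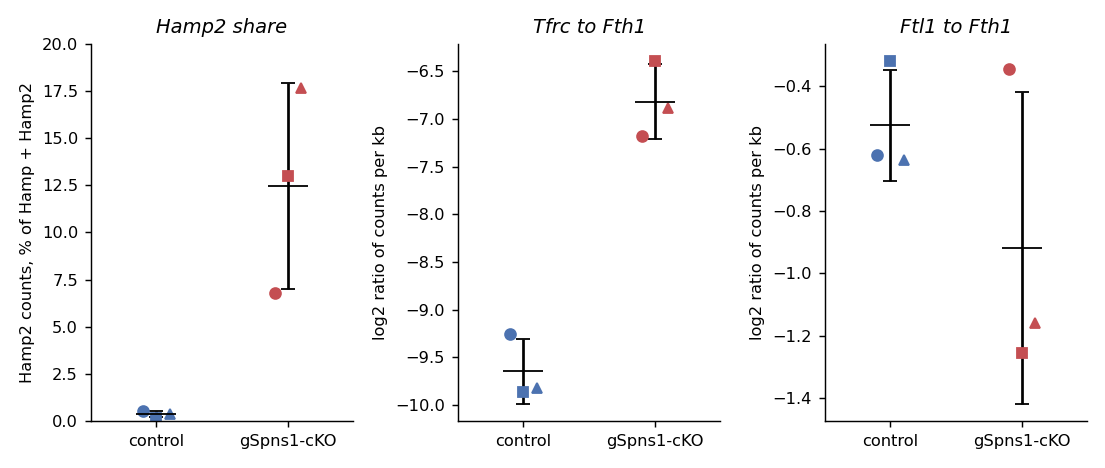
Ratios formed within each library: the share of *Hamp2* in the summed *Hamp* and *Hamp2* counts (%), and the log2 ratios per length of *Tfrc* to *Fth1* and of *Ftl1* to *Fth1*. Points are libraries, black bars are means ± SD (n = 3). The gSpns1-cKO livers lie above all controls in the first 2 panels and overlap them in the third.

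Of the members that act on hepcidin, *Bmp6* was called higher, *Tfr2* was called lower and *Hfe* was narrowly called lower. *Bmp6* (ENSMUSG00000039004, chr13:38345107-38500302, plus strand) encodes the endothelial ligand that conveys iron status to hepatocytes. It had 157, 198 and 105 counts in controls and 273, 472 and 417 in g*Spns1*-cKO livers, the latter all above the former once scaled. The mean rose from 5.39 ± 1.15 to 10.2 ± 2.39 CPM, 1.88-fold (log2 fold change 0.91, SE 0.22, edgeR adjusted p = 0.00763). *Bmp6* overlaps *Txndc5* on the opposite strand, whose mean was 189 CPM in controls and 155 CPM in g*Spns1*-cKO livers. The strand setting of the counting was not given in the sources used here, so reads of the pair cannot be told apart. Of 10 sinusoidal endothelium markers 6 were higher, with summed levels of 266 to 293 CPM in controls and 337 to 407 CPM in g*Spns1*-cKO livers. Their part in the *Bmp6* difference was not tested.

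*Tfr2* (ENSMUSG00000029716, chr5:137569840-137587481, plus strand) encodes the hepatocyte's sensor of iron-loaded transferrin. Its levels were 514, 787 and 710 CPM in controls and 288, 355 and 282 CPM in g*Spns1*-cKO livers. Every g*Spns1*-cKO library was below every control. The mean fell from 670 ± 141 to 309 ± 40.8 CPM, 2.17-fold lower (log2 fold change -1.12, SE 0.18, edgeR adjusted p = 0.0009). *Hfe* (ENSMUSG00000006611, chr13:23702034-23710854, minus strand) encodes the HLA-like protein mutated in the common form of hemochromatosis. It stood at 49.8, 57.4 and 60.6 CPM in controls and 51.3, 32.4 and 38.9 CPM in g*Spns1*-cKO livers. The first g*Spns1*-cKO library lay within the control range. *Hfe* passed the test narrowly, at 56.0 ± 5.54 against 40.9 ± 9.58 CPM (log2 fold change -0.45, SE 0.16, edgeR adjusted p = 0.0459). It was not called with library size alone (log2 fold change -0.010) or upper-quartile scaling (-0.33), nor without control replicate 2 (edgeR adjusted p = 0.113), control replicate 3 (0.129), g*Spns1*-cKO replicate 2 (0.121) or g*Spns1*-cKO replicate 3 (0.131). The median log2 fold change of the 10 hepatocyte markers was -0.64 in the same libraries, and -0.20 with library size alone. Their part in the *Tfr2* and *Hfe* differences was not tested.

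**Figure D3:**
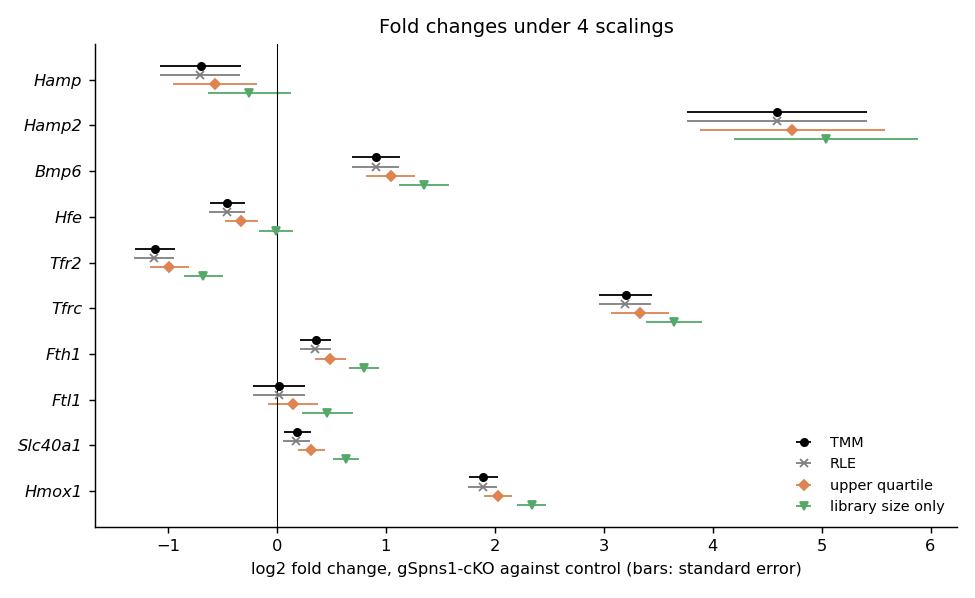
Log2 fold change of each gene, gSpns1-cKO against control, with bars of 1 standard error, under TMM, relative log expression (RLE), upper-quartile and library-size scaling. Each gene keeps its side of 0 under all 4, though *Hfe* stands at only -0.010 with library size alone and is not called there.

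The wider BMP-SMAD arm of hepcidin control, a list of 26 genes that includes these 3, had 8 of 25 tested genes higher and 3 lower (median log2 fold change 0.18). Over all genes tested 21.3% were higher and 20.5% lower, so calls in this list were about as common as elsewhere. With library size alone the counts were 16 and 1, and without g*Spns1*-cKO replicate 1 they were 9 and 5. The SMAD target *Id1* rose from 6.07 ± 0.203 to 10.6 ± 3.04 CPM (log2 fold change 0.81, edgeR adjusted p = 0.00852). Of the inhibitory SMADs, *Smad6* was higher (log2 fold change 0.60, edgeR adjusted p = 0.0412), and *Smad7* was not called (0.19, edgeR adjusted p = 0.295). The *Smad6* call was lost when control replicate 1, control replicate 3, g*Spns1*-cKO replicate 1 or g*Spns1*-cKO replicate 3 was left out (edgeR adjusted p = 0.0764, 0.125, 0.0963 and 0.106). Of the ligands beside *Bmp6*, *Bmp2* rose by a log2 fold change of 0.59 (edgeR adjusted p = 0.0117; 0.0520 without control replicate 3). *Bmp5* showed the largest increase of the list, from 2.11 ± 0.460 to 6.33 ± 0.559 CPM (log2 fold change 1.58, edgeR adjusted p = 0.000359). *Tmprss6*, the protease that cleaves hemojuvelin, fell from 634 ± 49.8 to 430 ± 17.4 CPM (log2 fold change -0.56, edgeR adjusted p = 0.00703), a call that library size alone did not give (-0.12). The hemojuvelin gene, listed as *Hfe2*, was 92.7 ± 10.4 against 69.3 ± 22.3 CPM and was not called (log2 fold change -0.42, edgeR adjusted p = 0.141), but was lower without g*Spns1*-cKO replicate 1 (-0.72, edgeR adjusted p = 0.00129). *Fgl1*, a secreted antagonist of BMP ligands, had 7329 counts in control replicate 1 against 33011 and 29721 in the other controls. Its log2 fold change was -0.65 (edgeR adjusted p = 0.402), and without control replicate 1 it was -1.09 (edgeR adjusted p = 0.000975). *Erfe*, encoding the erythroid hormone that suppresses hepcidin, had at most 5 counts in any library and was not tested.

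In the IL-6-STAT3 arm, 2 of 11 tested genes were higher and 1 was lower, beside 21.3% and 20.5% of all genes tested. The median log2 fold change was 0.072, and library size alone gave 7 and 1. Without control replicate 1 or g*Spns1*-cKO replicate 3, 1 was higher. *Il6* had 0 counts in 5 libraries and 3 counts in g*Spns1*-cKO replicate 2. The oncostatin M receptor *Osmr* rose from 2.84 ± 0.216 to 6.57 ± 1.10 CPM (log2 fold change 1.21, edgeR adjusted p = 0.000963). The receptor for leukemia inhibitory factor, *Lifr*, fell from 253 ± 7.18 to 81.8 ± 4.37 CPM (log2 fold change -1.63, edgeR adjusted p = 7.35e-06).

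*Tfrc* (ENSMUSG00000022797, chr16:32608920-32632794, plus strand) encodes transferrin receptor-1, the main route of transferrin-bound iron into cells. Its counts were 489, 348 and 326 in controls and 3491, 6407 and 4648 in g*Spns1*-cKO livers. The lowest g*Spns1*-cKO library, at 97.0 CPM, was far above the highest control, at 17.4 CPM. The mean rose 9.20-fold, from 13.9 ± 3.16 to 127 ± 35.9 CPM (log2 fold change 3.20, SE 0.25, edgeR adjusted p = 6.73e-05). It was higher under each alternative run, with log2 fold changes of 2.96 to 3.39 when single libraries were left out. Erythroid precursors also express *Tfrc*. Of the 12 genes of the erythroid and red cell list, 7 were tested, with *Hba-a1*, *Hbb-bs* and *Tfrc* itself higher and *Alas2* lower. *Hba-a2* (log2 fold change 1.14, edgeR adjusted p = 0.0866), *Hbb-bt* (0.56, edgeR adjusted p = 0.330) and *Klf1* (-0.73, edgeR adjusted p = 0.143) were not called. Both hemoglobin calls were lost, leaving 1 gene of the list higher, without control replicate 1, 2 or 3 or g*Spns1*-cKO replicate 1, whereas 5 genes were higher without g*Spns1*-cKO replicate 2. Among the genes of the list too low to test, *Gata1* had 0 counts in all 6 libraries, *Rhag* at most 1, *Epb42* at most 5 and *Slc4a1* at most 6. The summed list level, which includes *Tfrc*, was 151 to 178 CPM in controls and 236 to 313 CPM in g*Spns1*-cKO livers. *Tfrc* alone gave 11.3 to 17.4 CPM of it in controls and 97.0 to 167 CPM in g*Spns1*-cKO livers. The sum therefore does not show whether the other genes of the list rose. The part of the erythroid and the other marker lists in the *Tfrc* difference was not tested.

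Iron uptake genes moved in both directions, with 3 of 13 tested higher and 5 lower (median log2 fold change -0.25). Across all genes tested the shares were 21.3% and 20.5%. With library size alone 6 were higher and 1 lower. The lower count dropped to 2 without control replicate 2 or g*Spns1*-cKO replicate 2, and to 3 without control replicate 3 or g*Spns1*-cKO replicate 3. *Slc11a2*, the divalent metal transporter that moves iron out of endosomes, rose from 29.0 ± 1.51 to 46.2 ± 4.07 CPM (log2 fold change 0.67, edgeR adjusted p = 0.00081). *Steap3*, a ferrireductase of the same compartment, was lower at 26.1 ± 2.28 against 17.8 ± 4.49 CPM (log2 fold change -0.55, edgeR adjusted p = 0.0246). That call was absent with library size alone (-0.11) and upper-quartile scaling (-0.42), and without control replicate 2, control replicate 3, g*Spns1*-cKO replicate 2 or g*Spns1*-cKO replicate 3 (edgeR adjusted p = 0.0794, 0.0656, 0.0692 and 0.0897). *Scara5*, a receptor for ferritin, had 389, 677 and 241 counts in controls and 137, 29 and 23 in g*Spns1*-cKO livers. Its fall from 15.1 ± 6.33 to 1.72 ± 1.81 CPM was the largest of the list (log2 fold change -3.15, edgeR adjusted p = 0.0359). It missed the threshold when any library but g*Spns1*-cKO replicate 1 was left out (edgeR adjusted p = 0.0538 to 0.115). The transferrin gene *Trf* (log2 fold change 0.33, edgeR adjusted p = 0.168) and the transporter for free iron *Slc39a14* (0.075, edgeR adjusted p = 0.766) were not called. *Lcn2*, a siderophore-binding protein of the acute phase, had 150, 5150 and 11874 counts in controls and 3484, 1973 and 3156 in g*Spns1*-cKO livers. It was not called (log2 fold change -1.49, edgeR adjusted p = 0.477), and passed the threshold without control replicate 1 (-2.07, edgeR adjusted p = 0.0452).

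The ferritin subunits differed from each other in spread. *Fth1* (ENSMUSG00000024661, chr19:9982703-9985092, plus strand) encodes the heavy subunit, which oxidizes iron for storage. It had 41888, 45503 and 41182 counts in controls and 70849, 75488 and 76775 in g*Spns1*-cKO livers. Scaled, the g*Spns1*-cKO libraries lay close together at 1953 to 1969 CPM, above the controls at 1478 to 1627 CPM. The means were 1532 ± 83.1 and 1963 ± 8.91 CPM, and the difference did not pass the test (log2 fold change 0.36, SE 0.14, edgeR adjusted p = 0.0644). *Fth1* sat near the threshold: it was higher by DESeq2 (log2 fold change 0.35, adjusted p = 0.00582) and limma-voom (0.36, adjusted p = 0.0453), and with upper-quartile scaling (0.49) and library size alone (0.80).

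*Ftl1* (ENSMUSG00000050708, chr7:45457944-45459884, minus strand) encodes the light subunit, which aids formation of the iron core. Its counts were 42136, 56415 and 41015 in controls and 86264, 48954 and 53228 in g*Spns1*-cKO livers. One g*Spns1*-cKO library, replicate 1 at 2398 CPM, was above all others, whereas replicates 2 and 3, at 1276 and 1354 CPM, were below all controls, at 1499 to 1832 CPM. The means were therefore close, 1650 ± 169 against 1676 ± 626 CPM (log2 fold change 0.022, SE 0.24, edgeR adjusted p = 0.950). Without g*Spns1*-cKO replicate 1 the log2 fold change was -0.33 (edgeR adjusted p = 0.111). Processed pseudogenes of *Ftl1* held 2.20 to 2.69% of the summed *Ftl1* counts and adding them gave a log2 fold change of 0.018. The log2 ratio of *Ftl1* to *Fth1* per length was -0.53 ± 0.18 in controls and -0.92 ± 0.50 in g*Spns1*-cKO livers (two-sided exact permutation p = 0.3, n = 3 each). The log2 ratio of *Tfrc* to *Fth1* per length, uptake receptor against storage subunit, was -9.65 ± 0.34 in controls and -6.82 ± 0.40 in g*Spns1*-cKO livers. This 7.10-fold difference separated the groups fully, at the smallest two-sided exact permutation p of 0.1.

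*Slc40a1* (ENSMUSG00000025993, chr1:45908068-45926523, minus strand) encodes ferroportin, the only known exporter of iron from cells. It stood at 123, 128 and 151 CPM in controls and 159, 160 and 137 CPM in g*Spns1*-cKO livers. The third library of each group made the ranges overlap. Its mean was 134 ± 14.9 against 152 ± 13.1 CPM and did not pass the test (log2 fold change 0.19, SE 0.12, edgeR adjusted p = 0.256). With library size alone it was higher (0.63, edgeR adjusted p = 0.00148). For comparison, 21.3% of all genes tested were higher and 20.5% lower. Of 8 tested genes of storage, export and mobilisation, 1 was higher and none lower (median log2 fold change 0.17), against 7 and 0 with library size alone. The called gene was the ferroxidase *Heph*, at 1.13 ± 0.180 and 2.64 ± 0.137 CPM (log2 fold change 1.22, edgeR adjusted p = 0.00381). Ceruloplasmin, *Cp*, the ferroxidase that hepatocytes secrete, was at 0.16 (edgeR adjusted p = 0.505). *Ncoa4*, the receptor that delivers ferritin to lysosomes for breakdown, was at 0.27 (edgeR adjusted p = 0.0737), with all g*Spns1*-cKO libraries above all controls, and was called with upper-quartile scaling (0.40, edgeR adjusted p = 0.0134).

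Where 21.3% of all genes tested were higher and 20.5% lower, 13 iron-regulatory proteins and IRE-bearing transcripts were compared. Among these 13, 2 were higher (*Tfrc* and *Slc11a2*) and 3 were lower, with 9 and 1 using library size alone. The lower genes include both iron-regulatory proteins. *Aco1*, encoding IRP1, fell from 290 ± 7.62 to 181 ± 3.10 CPM (log2 fold change -0.68, edgeR adjusted p = 0.00099). *Ireb2*, encoding IRP2, fell from 107 ± 17.3 to 62.2 ± 9.87 CPM (log2 fold change -0.78, edgeR adjusted p = 0.00241). Neither was called with library size alone (-0.23 and -0.34). The third was *Alas2*, the erythroid form of the first enzyme of heme synthesis, at 2588, 2603 and 2202 counts in controls and 528, 226 and 346 in g*Spns1*-cKO livers (log2 fold change -3.17, edgeR adjusted p = 0.000772).

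The mitochondrial genes for iron import and iron-sulfur cluster assembly moved in 1 direction where called, with 0 of 18 tested higher and 10 lower (median log2 fold change -0.45). Upper-quartile scaling gave 0 and 8, but library size alone gave 4 and 3, so the direction of this list depends on the scaling. Without control replicate 1, 1 of 19 tested was higher and 10 were lower. The largest decrease was that of the ferredoxin *Fdx1*, from 137 ± 11.6 to 73.0 ± 0.530 CPM (log2 fold change -0.91, edgeR adjusted p = 0.00015). Over the 8 lists together, 20 of 111 tested genes were higher and 25 were lower (median log2 fold change 0.022). Over all genes the shares were 21.3% and 20.5%. With library size alone 64 were higher and 9 lower, and with upper-quartile scaling 33 and 20.

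**Figure D4:**
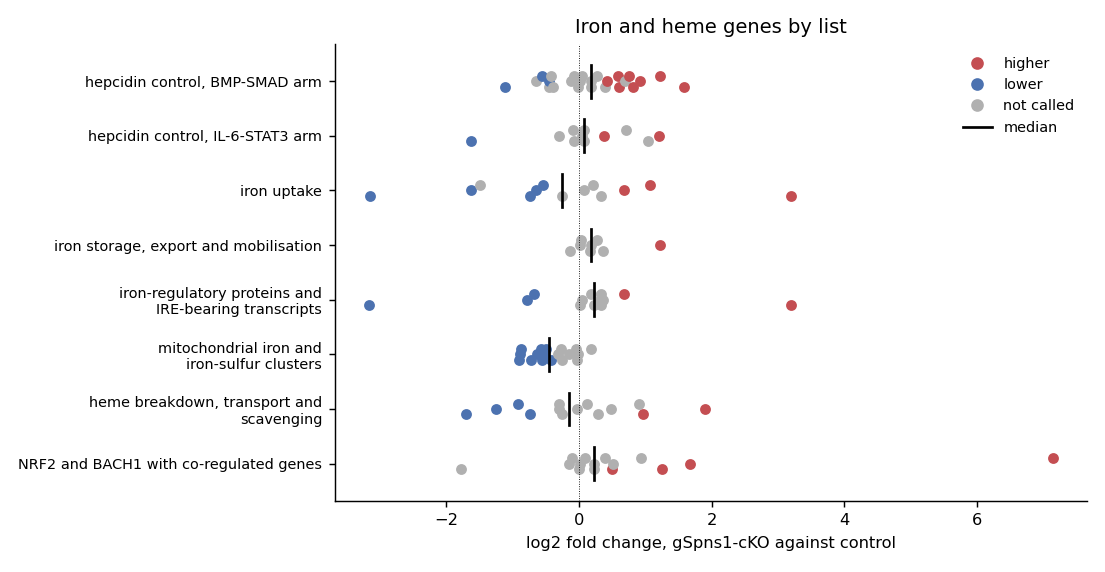
Log2 fold change of each tested gene of the 8 iron and heme lists, gSpns1-cKO against control. Points are genes, red where higher, blue where lower and grey where not called at an adjusted p of 0.05, and black lines are list medians. Called mitochondrial genes (10 of 18) all lie below 0 on this TMM scale (4 higher and 3 lower with library size alone), whereas the uptake list spreads from *Scara5* at -3.15 to *Tfrc* at 3.20.

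*Hmox1* (ENSMUSG00000005413, chr8:75093621-75100589, plus strand) encodes the inducible heme oxygenase-1 and varied little among the g*Spns1*-cKO livers. It had 347, 536 and 385 counts in controls and 2025, 2133 and 2184 in g*Spns1*-cKO livers. The g*Spns1*-cKO libraries spanned only 55.6 to 56.3 CPM, against 12.3 to 17.4 CPM in controls. The mean rose 3.72-fold, from 15.0 ± 2.54 to 55.8 ± 0.412 CPM (log2 fold change 1.90, SE 0.13, edgeR adjusted p = 7.56e-06). Macrophage markers were also higher in g*Spns1*-cKO livers, as were the stellate cell and cholangiocyte markers given above. The summed resident Kupffer cell markers were 195 to 313 CPM in controls and 646 to 955 CPM in g*Spns1*-cKO livers, with 10 of 10 higher and a median log2 fold change of 1.71. The summed markers of other macrophages were 102 to 137 and 557 to 704 CPM, also 10 of 10 higher, with a median of 2.24. Their part in the *Hmox1* difference was not tested. *Slc40a1*, which Kupffer cells also express, had a log2 fold change of 0.19, and *Cd163*, the macrophage receptor for hemoglobin bound to haptoglobin, was not called (log2 fold change 0.48, edgeR adjusted p = 0.165). Without control replicate 3, *Cd163* was higher (0.76, edgeR adjusted p = 0.0278).

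**Figure D5:**
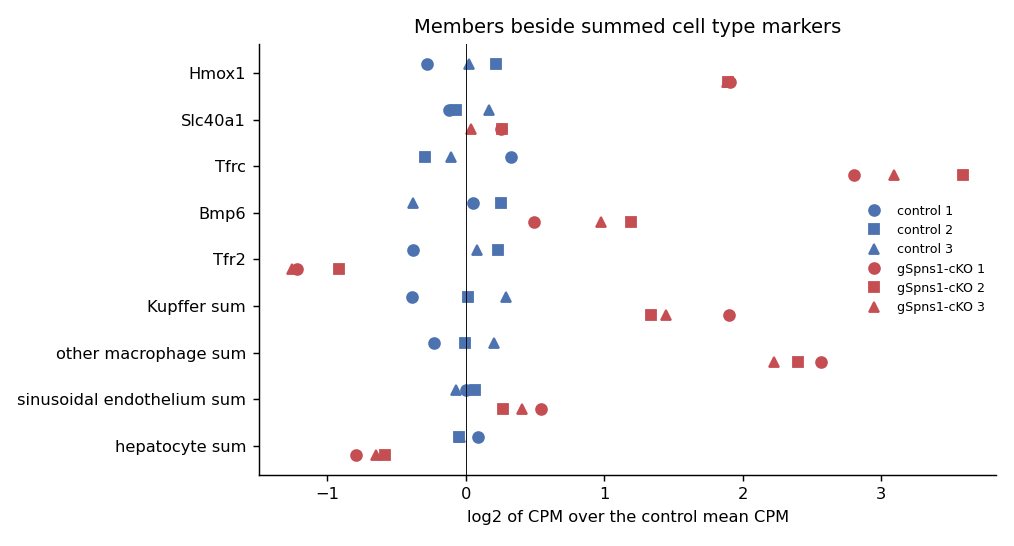
*Hmox1*, *Slc40a1*, *Tfrc*, *Bmp6* and *Tfr2* beside the summed levels of marker lists, each as log2 of a library's CPM over the control mean. Points are libraries, blue for control and red for gSpns1-cKO. The *Hmox1* libraries of gSpns1-cKO livers coincide near 1.90, at the upper end of the Kupffer cell sum and below the other macrophage sum. *Slc40a1* stays near 0.

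The list of heme handling, which includes *Hmox1*, was mixed, with 2 of 14 higher (*Hmox1* and *Flvcr1*) and 4 lower (median log2 fold change -0.15), or 7 and 2 with library size alone. On the TMM scale, 21.3% of all genes tested were higher and 20.5% lower. The constitutive heme oxygenase *Hmox2* was not called (log2 fold change 0.13, edgeR adjusted p = 0.330). Of the reductases that turn biliverdin into bilirubin, *Blvra* was at 0.29 (edgeR adjusted p = 0.0645) and *Blvrb* at -0.26 (edgeR adjusted p = 0.106). *Blvrb* was lower without g*Spns1*-cKO replicate 2 (-0.36, edgeR adjusted p = 0.0442), and *Blvra* was higher with upper-quartile scaling (0.42). The heme exporter *Flvcr1* rose from 2.72 ± 0.376 to 5.34 ± 0.488 CPM (log2 fold change 0.97, edgeR adjusted p = 0.00343), and the lysosomal heme transporter *Slc48a1* was at -0.037 (edgeR adjusted p = 0.830). Haptoglobin, *Hp*, which captures free hemoglobin, had 91322, 423014 and 330692 counts in controls and 118484, 107877 and 120970 in g*Spns1*-cKO livers. Control replicate 1 lay with the g*Spns1*-cKO libraries. *Hp* was lower (log2 fold change -1.71, edgeR adjusted p = 0.0450), more so without control replicate 1 (-2.14, edgeR adjusted p = 5.6e-05), and was not called when any other single library was left out (edgeR adjusted p = 0.0973 to 0.154), with limma-voom, or with library-size or upper-quartile scaling. Hemopexin, *Hpx*, the heme scavenger of plasma, was at -0.30 (edgeR adjusted p = 0.551), and at -0.66 without control replicate 1 (edgeR adjusted p = 0.0225).

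*Hmox1* is repressed by BACH1 and induced by NRF2 (*Nfe2l2*), and neither transcript was called, at log2 fold changes of 0.016 (edgeR adjusted p = 0.919) and 0.22 (edgeR adjusted p = 0.263). The activity of these proteins was not measured. *Nfe2l2* was higher without control replicate 1 (0.42, edgeR adjusted p = 0.0190). Of the 15 genes of the list that holds *Bach1* and *Nfe2l2*, 4 were higher (*Slc7a11*, *Nqo1*, *G6pdx* and *Maff*) and none lower. Higher and lower shares over all genes tested were 21.3% and 20.5%. The median log2 fold change of the 15 genes was 0.23. With library size alone the counts were 12 and 0. Without control replicate 2 or g*Spns1*-cKO replicate 3, 2 were higher. The largest change was in the cystine transporter *Slc7a11*, with 1, 0 and 0 counts in controls and 102, 25 and 125 in g*Spns1*-cKO livers (edgeR adjusted p = 0.000671). The ratio of its summed, scaled counts was 187, with a 95% exact interval of 33.2 to 7401 that covers counting error only.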

How the data were processed

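The authors deposited 1 table of raw read counts per gene for 6 libraries. The submitters' processing notes name fastp, HISAT2 2.0.5, featureCounts 1.5.0-p3 and mm10. The table's FPKM values and its columns of fold changes and p-values between the groups, the authors' own comparison, were not used. Counts were filtered with filterByExpr, scaled by TMM and tested in edgeR 4.0.16 (R 4.3.3) with the robust quasi-likelihood test, with no covariate; DESeq2 1.42.0 and limma 3.58.1 (voom) were alternatives, beside other scalings and filters and leaving out each library. The SE is the size of the log2 fold change over the square root of F. The study's sources used here name no test for these counts. The fit was tested on simulated data. No libraries agreed within sampling noise. Each mouse is 1 library, so the mouse is the unit of replication in all tests.

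The 10 genes and the lists were chosen with earlier results of these data known. Named are these genes, a fixed set of their partners, and in each list the called gene with the largest increase and the largest decrease where the mean over all libraries reached 1 CPM. Erythroid genes and the other called genes of the NRF2 and BACH1 list were named after their values were seen. Promoters come from RefSeq, which matched 8 of the 10 genes, and gene positions are the deposited ones, of which 9 were identical in GENCODE M21.
The result for 1 listed erythroid marker is not reported here.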

Additional observations from a re-analysis of the deposited data

How the results depend on the processing

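*Tfrc*, *Hmox1*, *Tfr2* and *Bmp6* kept their direction and call under the other tools, scalings, filters and the replicate block, and without each library. The alternatives read for pathway genes other than these 10 were chosen after seeing the data. With library size alone 73 pathway genes were called (45 under TMM), *Slc40a1* was higher (0.63), and *Hfe* was not called (-0.010); its call was also lost with upper-quartile scaling (-0.33) and a filter of 10 counts in every library (-0.41). *Fth1* passed the threshold with DESeq2 (0.35), limma-voom (0.36), library size alone (0.80), upper-quartile scaling (0.49) and the filter of 10 counts in every library (0.40). *Trf*, *Smad7*, *Slc39a14*, *Cp*, *Hmox2*, *Slc48a1*, *Bach1*, *Nfe2l2*, *Ncoa4*, *Blvra* and *Cd163* were higher with library size alone. *Ftl1* turned negative with limma-voom (-0.031). The cause of these shifts was not tested, beyond the TMM factors given above. Leaving out 1 library gave 4 to 6 of the 10 genes and 36 to 48 pathway genes called. The log2 fold changes then ranged from -1.23 to -0.44 for *Hamp*, 3.98 to 5.17 for *Hamp2*, -0.65 to -0.31 for *Hfe* and -0.33 to 0.18 for *Ftl1* (-0.058 without control replicate 1, -0.0044 without control replicate 3, -0.33 without g*Spns1*-cKO replicate 1). The replicate numbers are shared between groups. Same-numbered libraries showed little common deviation (r = 0.037, 0.033 and -0.028), and not every library correlated best with its own number. With 3 libraries per group these values cannot decide whether the numbers mark pairs. With the replicate block, 6100 genes and 5 of the 10 were called: *Hamp* was lower (-0.82, edgeR adjusted p = 0.0396), *Hamp2* (4.43, edgeR adjusted p = 0.0896) and *Hfe* (-0.48, edgeR adjusted p = 0.0575) were not called, and *Ftl1* stood at -0.037. With 3 mice per group the spread between mice limits the comparisons; *Erfe* and *Il6* were too low to test.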

Other observations

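Over the 6 libraries and the 8001 tested genes whose mean reached 10 CPM, the log2 CPM of *Hamp* was most like that of *Nfkbia* (Pearson's r = 0.974), *Bcat2* (0.970) and *Lzts3* (0.964), and 49 genes had r above 0.9. For *Hmox1* the closest were *Axl* (0.998), *Clec1b* (0.998) and *Iqgap1* (0.997), and 678 genes had r above 0.9. *Axl* encodes a receptor for dying cells and *Clec1b* is one of the Kupffer cell markers. The points share the split between the groups, so these values are descriptions of 6 libraries.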
